A study of Mus musculus with 76 samples.

Results

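Interneurons that carried Nos1, the gene of neuronal nitric oxide synthase, were set against interneurons that did not, among single neurons sampled by Patch-seq from newborn mouse hippocampus. Nos1-expressing cells were the labelled cells with Nos1 at 10 CPM (counts of a gene per 1000000 counts of the cell) or more, and Nos1-negative cells were those below it. Of 76 labelled cells, 67 passed the authors' quality filter and 62 of these carried no contamination mark. These 62 divided into 10 Nos1-expressing and 52 Nos1-negative cells.

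In Patch-seq the contents of a recorded cell are drawn into the patch pipette and sequenced, here after a Nextera XT library preparation, and each library is 1 cell. All cells came from the pyramidal cell layer of dorsal CA1 at postnatal day 4, and all mice carried Nkx2.1 Cre with the Ai14 TdTomato reporter, so that recorded cells were red and derived from the medial ganglionic eminence (MGE), with an intended enrichment of putative parvalbumin basket cells. The condition groups were Mut female (GPHN S268/270A; 3 Nos1-expressing and 16 Nos1-negative cells), Mut male (1 and 14), WT female (GPHN WT; 0 and 9) and WT male (6 and 13). GPHN is gephyrin, the scaffold that holds glycine and GABA-A receptors at inhibitory synapses, and the mutant carries alanine at 2 serine phosphorylation sites. The labels name no animal, litter or slice, so cells were not treated as replicates, and the p-values below measure the spread between sums of cells per condition group.

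Neuronal nitric oxide synthase makes nitric oxide, a diffusible messenger, from arginine when calcium-bound calmodulin activates it, and nitric oxide acts mainly through a soluble guanylate cyclase that makes cGMP. In the adult hippocampus Nos1 marks ivy cells and part of the neurogliaform cells, slow-spiking interneurons that also make neuropeptide Y (Npy). Ivy cells arise in the MGE and lack Reln, which MGE-derived neurogliaform cells contain. A rarer MGE type, the long-range projecting Sst-Nos1 cell, combines Nos1 with Sst, Npy, Chodl and Tacr1.

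The cells were chosen by their Nos1 values, which are given as a description only. The gene lies at chr5:117781032-117958840 on the plus strand of GRCm38 and overlaps Gm37028 and the antisense gene Gm26995. Strandedness of the libraries is not given in the sources used here, so reads of the overlapping genes could not be told apart. In Mut female cells 5, 13 and 21 Nos1 was at 108, 10.8 and 73.1 CPM, and in Mut male cell 4 it was at 17.2 CPM. In WT male cells 6, 9, 10, 11, 12 and 18 it was at 125, 85.7, 626, 108, 196 and 142 CPM. Mut female cell 13 and Mut male cell 4 sat just inside the limit, and the other 8 members were all above 70 CPM. The Nos1-negative cells nearest the limit were Mut male cell 10 at 7.15 CPM and Mut female cell 10 at 3.29 CPM. The median of the Nos1-negative cells was 0.19 CPM, and 16 of the 52 had no Nos1 count. The deposited TPM, which divide by transcript length, gave 11.3 to 13.9 TPM per 100 CPM of Nos1 in 8 of the members, but 43.0 in Mut female cell 5 and 21.6 in Mut male cell 4.

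**Figure D1:**
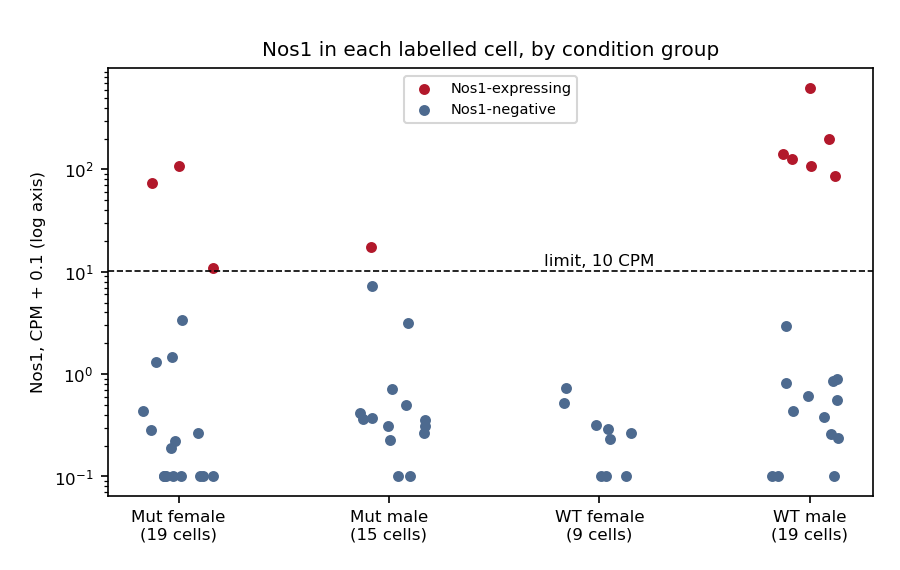
Nos1 level of each of the 62 cells (CPM + 0.1, log axis) by condition group; red points are the 10 cells at or over the limit of 10 CPM (dashed), blue points the 52 below it, and the horizontal scatter within a group has no meaning. The WT male members lie between 85.7 and 626 CPM, and no WT female cell reaches the limit.

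Nos1-expressing cells made up 15.8% of Mut female cells (3 of 19, exact 95% binomial interval 3.38 to 39.6%), 6.67% of Mut male cells (1 of 15, 0.169 to 31.9%), 0% of WT female cells (0 of 9, which allows a share of up to 33.3%) and 31.6% of WT male cells (6 of 19, 12.6 to 56.6%). The intervals overlapped. They cover counting error only, as do all binomial intervals below, and no test was made between groups that are each 1 set of cells. Within WT male, 5 of the 6 members fell among 7 cells that stand next to each other in the order of the labels (cells 6 to 12), and 1 fell among the other 12; these bounds were chosen after the values were seen.

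Most members carried the MGE and GABA genes that the label calls for. Lhx6, the transcription factor that MGE interneurons keep after leaving the eminence, and Gad1, which makes GABA, were both at 10 CPM or more in 9 of 10 Nos1-expressing cells and in 46 of 52 Nos1-negative cells. Of the members 8 had Lhx6, Gad1 and Npy together, as did 42 of the Nos1-negative cells. The ivy combination, Lhx6, Gad1 and Npy with neither Sst nor Reln, was met by 3 of 10 members (30.0%, 6.67 to 65.2%) and by 18 of 52 Nos1-negative cells (34.6%, 21.97 to 49.1%).

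The 10 members differed from one another in subtype markers. Mut male cell 4, WT male cell 10 and WT male cell 18 held the ivy combination, with Npy at 865, 792 and 274 CPM and Reln at or below 0.54 CPM. In the same cells the pyramidal neuron marker Neurod6 was at 440, 17.3 and 180 CPM. Microglia markers summed to 803 CPM in WT male cell 10. Lamp5, a neurogliaform and ivy marker of the adult cortex, was at 261 CPM in WT male cell 10 and at 243 CPM in Mut female cell 5, and at or below 2.09 CPM in the other 8.

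Mut female cell 13 was the member with the most Npy (1676 CPM) and the most Reln (1339 CPM), beside 685 CPM of Tac1. Mut female cell 5 and WT male cell 6 also held Npy (534 and 553 CPM) with Reln (164 and 151 CPM), but had Sst as well, at 332 and 22.5 CPM. Sst was at 10 CPM or more in 6 members, of which Mut female cell 5 had by far the most. The next highest were WT male cell 9 at 55.0 CPM, Mut female cell 21 at 50.2 CPM, WT male cell 6 at 22.5 CPM and WT male cell 11 at 18.98 CPM.

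WT male cell 11 held the highest Tac1 of the members, 1842 CPM, with 733 CPM of Npy and 478 CPM of Slc17a7, the vesicular glutamate transporter of pyramidal cells. WT male cell 12 went against its MGE label, with Lhx6 at 2.55, Gad1 at 8.24 and Gad2 at 3.48 CPM, while it held the most Neurod6 (833 CPM), a transcription factor of pyramidal neurons, the most Cck (1785 CPM) and the most Cnr1 (437 CPM). WT male cell 9 also had little Lhx6 (16.1 CPM) and Gad1 (42.5 CPM). Mut female cell 21 was the member with the least Npy (7.64 CPM) and held genes of oligodendrocyte precursors, Olig1 at 1010, Pdgfra at 499, Olig2 at 248 and Sox10 at 85.6 CPM, beside Lhx6 at 447 and Gad1 at 438 CPM. Mut female cell 5 also held Olig2 at 142 and Olig1 at 26.3 CPM, WT male cell 9 held Pdgfra at 44.1 and Olig1 at 21.2 CPM, and WT male cell 18 held Olig1 at 19.6 CPM. No Nos1-negative cell reached 10 CPM of Olig2, Pdgfra or Sox10, while 10 of 52 reached it for Olig1. The part of other cells' RNA in these profiles was not tested.

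**Figure D2:**
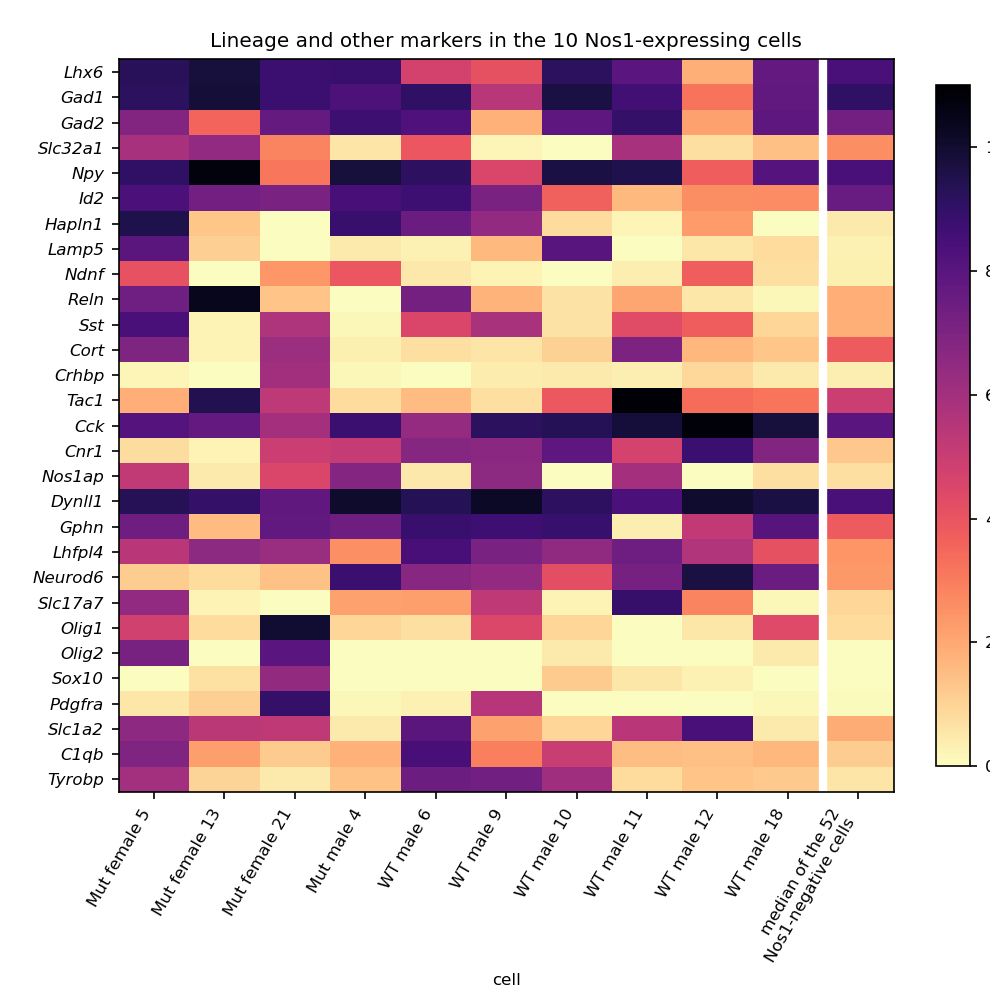
Levels of 29 lineage and other markers, log2(CPM + 1) as colour, in each Nos1-expressing cell, with the median over the 52 Nos1-negative cells in the last column after the white line. Npy, Lhx6 and Gad1 are dark in most members, Reln, Sst, Lamp5 and Tac1 each in a few, and Olig1, Olig2, Sox10 and Pdgfra stand out in Mut female cell 21.

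No gene passed the test between the Nos1 classes. Sums of cells per condition group and class were compared within the 3 condition groups that hold both classes (WT female has no member), with Nos1 left out, by edgeR's quasi-likelihood test. Of 14295 genes, 0 were called higher and 0 lower in Nos1-expressing cells once p was adjusted (0% each, threshold 0.05). At an unadjusted p under 0.05 it gave 85 genes higher (0.595%) and 502 lower (3.51%); limma gave 0 adjusted calls and 682 higher (4.77%) and 198 lower (1.39%) unadjusted, and DESeq2 called 152 higher (1.08% of 14017) and 1258 lower (8.97%). The member sums hold 1 to 6 cells against 13 to 16 in the Nos1-negative sums, and the median log2 fold change of all genes was -0.44, with 36.7% of genes above 0, whereas limma on means of log2(CPM+1) had a median of 0.29. Directions below are read against these medians. By cells, the share at 10 CPM or more was greater among Nos1-expressing than Nos1-negative cells for 56.6% of the genes tested and smaller for 36.9%.

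Of the 14 ivy and neurogliaform markers, 13 were tested. Of these 1 had an unadjusted p under 0.05 upward and 0 downward, against 0.595% and 3.51% of all genes. Of the 13 log2 fold changes 6 were above 0, against 36.7% of all genes, and their median was -0.26, against -0.44. Npy was at 10 CPM or more in 9 of 10 Nos1-expressing cells (55.5 to 99.7%) and 45 of 52 Nos1-negative cells (74.2 to 94.4%), with medians of 543 and 338 CPM. Its log2 fold change was -0.29 ± 0.34 (SE; adjusted p = 0.999724, edgeR), and it was 0.80 by limma and 0.15 without the Mut female cells. Summed over cells, Npy was at 656 CPM against 1465 CPM in Mut female, at 958 against 805 CPM in Mut male and at 395 against 391 CPM in WT male, for Nos1-expressing against Nos1-negative sums. Most cells of both classes thus held Npy.

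Hapln1, which links hyaluronan to proteoglycans of the extracellular matrix, was the ivy and neurogliaform marker with the small p. It was at 740, 460, 181 and 88.7 CPM in Mut female cell 5, Mut male cell 4, WT male cell 6 and WT male cell 9, and at or below 3.90 CPM in the other 6 members. In Nos1-negative cells it reached 10 CPM in 6 of 52, with a median of 0.37 CPM. Its log2 fold change was 3.53 ± 1.47 (SE; unadjusted p = 0.0336, adjusted p = 0.999724, edgeR), and 0.57 without Mut female cell 5. Cacna2d1, an auxiliary calcium channel subunit, was at 10 CPM or more in 5 members and 12 Nos1-negative cells. Id2, a repressor of basic helix-loop-helix factors, was at this level in 7 members and 35 Nos1-negative cells, Nr2f1 in 5 and 29, Satb1 in 3 and 20, Ndnf in 3 and 10, Nr2f2 in 3 and 6, Kit in 2 and 9, Sv2c in 2 and 4, and Gabrd, the tonic GABA-A receptor subunit of adult neurogliaform cells, in 1 and 4. Cplx3 reached it in 0 cells of either class.

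Of the 8 markers of long-range Sst-Nos1 cells, 0 had an unadjusted p under 0.05 upward, against 0.595% of all genes. Downward it was 1, Crhbp (1 member and 8 Nos1-negative cells at 10 CPM or more), against 3.51% of all genes. The 2 most particular markers did not reach 10 CPM in any member: Chodl was at or below 2.48 CPM in all 10, and Tacr1 reached 10 CPM in 0, against 2 Nos1-negative cells for each gene. Sst was at 10 CPM or more in 6 of 10 Nos1-expressing cells (26.2 to 87.8%) and 15 of 52 Nos1-negative cells (17.1 to 43.1%), with medians of 15.6 and 2.59 CPM. The sums ran the other way: for Nos1-expressing against Nos1-negative cells, Sst was at 142 against 326 CPM in Mut female, at 0.14 against 759 CPM in Mut male and at 17.7 against 56.4 CPM in WT male. The highest Sst of a single cell was 332 CPM among Nos1-expressing and 10062 CPM among Nos1-negative cells. Calb1, Moxd1 and Chrm2 were at 10 CPM or more in 4, 2 and 1 members and in 20, 4 and 6 Nos1-negative cells.

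Cort, a peptide close to somatostatin, was at 10 CPM or more in 3 of 10 Nos1-expressing and 26 of 52 Nos1-negative cells, Reln in 3 and 19, and Elfn1, a postsynaptic organiser of facilitating inputs onto Sst cells, in 0 and 10. Of the 8 tested genes of the somatostatin lineage, 1 log2 fold change was above 0, against 36.7% of all genes, and 0 had an unadjusted p under 0.05. By cells, 5 of the 9 genes of this list had a greater share among Nos1-expressing cells and 4 a smaller one. The 5 were Sst, Npy, Pnoc, Calb1 and Chrna2. Of all genes tested, 56.6% had a greater share.

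Of the 16 genes for the synthase's partners, cofactor and arginine supply, 2 had an unadjusted p under 0.05 upward and 0 downward, against 0.595% and 3.51% of all genes. Of their log2 fold changes 8 of 16 were above 0, against 36.7% of all genes. Calm2, a calmodulin gene, was at 3529, 7594 and 3243 CPM in Mut female cells 5, 13 and 21 and at 8164 CPM in Mut male cell 4. In WT male cells 6, 9, 10, 11, 12 and 18 it was at 6760, 3890, 3742, 6800, 6586 and 10407 CPM. The Nos1-expressing median was 6673 CPM, against 3956 CPM in Nos1-negative cells, which ranged from 1120 to 8951 CPM, so the classes overlapped. Calm2 had a log2 fold change of 0.65 ± 0.15 (SE; unadjusted p = 0.00104, adjusted p = 0.999724, edgeR), and Calm2 has close copies between which reads may be split. Dynll1, a dynein light chain first described as an inhibitor of the synthase, was at 10 CPM or more in all 10 members and in 48 Nos1-negative cells, with medians of 644 and 345 CPM and a log2 fold change of 0.80 ± 0.33 (SE; unadjusted p = 0.0346, adjusted p = 0.999724, edgeR).

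Calm3, another calmodulin gene, had medians of 375 CPM in Nos1-expressing and 308 CPM in Nos1-negative cells. Nos1ap, the adaptor of the synthase, was at 10 CPM or more in 5 members and 11 Nos1-negative cells, and Dlg4, which ties it to NMDA receptors, in 6 and 26. Slc7a1, the arginine transporter, was at this level in 3 of 10 Nos1-expressing cells and 30 of 52 Nos1-negative cells, with medians of 4.01 and 20.6 CPM. Ddah1 and Ddah2, which break down an inhibitor of the synthase, were at it in 5 and 4 members and in 33 and 26 Nos1-negative cells. For tetrahydrobiopterin, the cofactor, Gch1 reached it in 0 members and 2 Nos1-negative cells, Pts in 5 and 23, Spr in 4 and 10, and Qdpr in 4 and 26. Asl, of arginine recycling, was at it in all cells, Ass1 in 1 and 2, and Hsp90aa1, a chaperone of the synthase, in all cells.

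Among the receptors and effectors of nitric oxide, 0 of 9 tested genes had an unadjusted p under 0.05. Of their log2 fold changes 5 of 9 were above 0, against 36.7% of all genes. Gucy1a1, the alpha subunit of the soluble guanylate cyclase, was at 10 CPM or more in 2 of 10 Nos1-expressing cells (2.52 to 55.6%) and 28 of 52 Nos1-negative cells (39.5 to 67.8%). The members with it were Mut male cell 4 at 64.4 CPM and WT male cell 11 at 102 CPM. Its partner Gucy1b1 was at this level in 5 members and 18 Nos1-negative cells and Gucy1a2 in 0 and 2. The phosphodiesterases that break down cGMP were at it in 8 members and 32 Nos1-negative cells (Pde2a), 6 and 26 (Pde10a), 4 and 16 (Pde1a), 2 and 14 (Pde5a) and 2 and 16 (Pde9a), and the cGMP-dependent kinases in 0 and 4 (Prkg1) and 1 and 2 (Prkg2). The other synthases reached it in 0 members and 0 Nos1-negative cells (Nos2) and in 0 and 1 (Nos3).

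**Figure D3:**
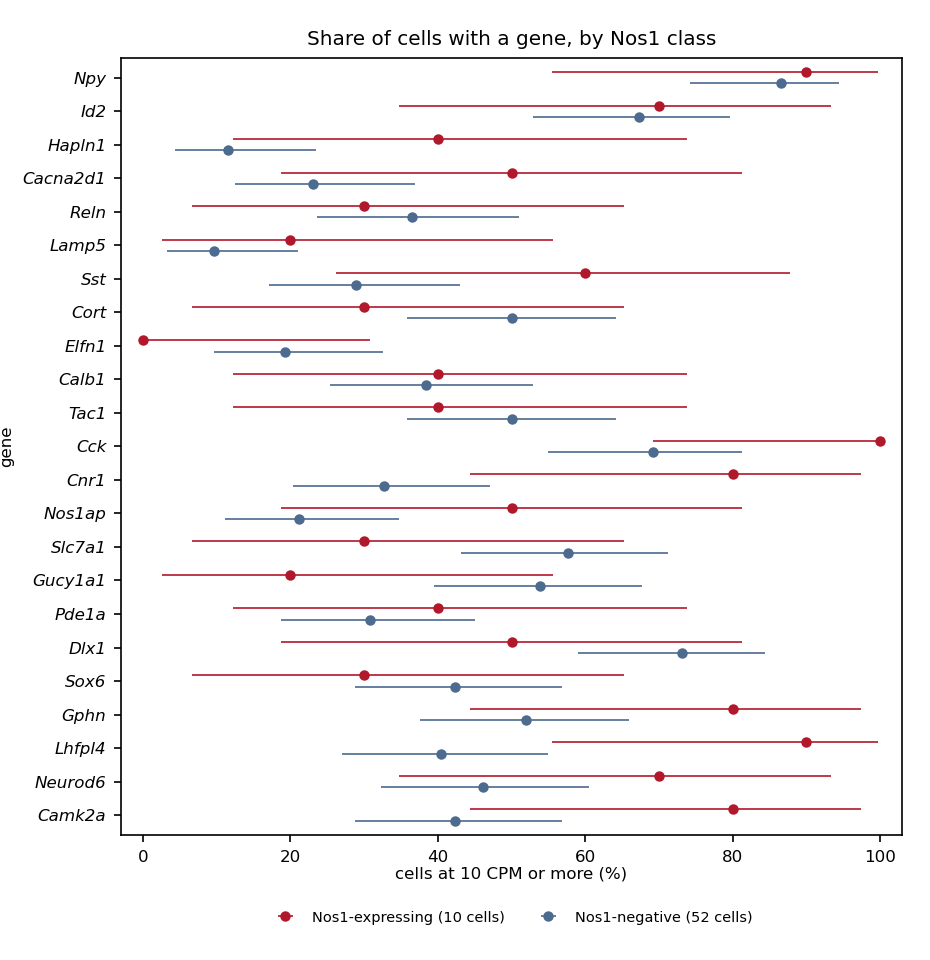
Share of cells at 10 CPM or more (percent, points) with exact 95% binomial intervals (lines) for 23 genes, Nos1-expressing cells in red above Nos1-negative cells in blue. The intervals of the 10 Nos1-expressing cells are wide, and those of most genes overlap widely between the classes.

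Genes of MGE identity, most of them transcription factors, had log2 fold changes below 0 in nearly every case. Of 14 tested, 1 log2 fold change was above 0, against 36.7% of all genes, their median was -0.67, and 1 gene, Mef2c, had an unadjusted p under 0.05 downward. Mef2c, an activity-dependent factor that precedes parvalbumin, was at 10 CPM or more in every cell, with medians of 514 CPM in Nos1-expressing and 881 CPM in Nos1-negative cells. Dlx1 was at this level in 5 members and 38 Nos1-negative cells, Dlx5 in 2 and 22, Sox6 in 3 and 22, Maf in 8 and 40, Dlx2 in 6 and 32, Zeb2 in 9 and 44 and Erbb4 in 6 and 31. Lhx6 itself had medians of 350 CPM in Nos1-expressing and 337 CPM in Nos1-negative cells. Summed over the list, MGE identity genes were at a median of 1777 CPM in Nos1-expressing and 2605 CPM in Nos1-negative cells; the difference of log2 means averaged -0.42 over the 3 condition groups and was positive in Mut female (exact sign-flip permutation p = 0.5, two-sided, where 0.25 is the smallest p that 3 condition groups allow).

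Markers of cells from the caudal eminence divided. Of the 10 markers, 5 had a greater share among Nos1-expressing cells and 4 a smaller one. Of all genes tested, 56.6% had a greater share. In the fit 2 of 8 log2 fold changes were above 0, against 36.7% of all genes, with a median of -0.86 against -0.44. Htr3a reached 10 CPM in 0 cells of either class, Vip in 0 members and 1 Nos1-negative cell, Calb2 in 0 and 8 and Prox1 in 1 and 6. Sp8 was at it in 0 and 2, Npas1 in 3 and 6 and Adarb2 in 2 and 5. Cck, the peptide of a basket cell class from that eminence and also of young pyramidal cells, was at 60.5 to 1785 CPM in the members, all 10 of them over 10 CPM (69.2 to 100%), against 36 of 52 Nos1-negative cells (54.9 to 81.3%), with medians of 511 and 252 CPM. Cnr1, the CB1 cannabinoid receptor, was at 10 CPM or more in 8 of 10 Nos1-expressing cells (44.4 to 97.5%) and in 17 of 52 Nos1-negative cells (20.3 to 47.1%), with medians of 65.9 and 1.44 CPM. All 6 WT male members held Cnr1, from 24.0 to 437 CPM, while among Mut members cells 5 and 13 of Mut female had 0.70 and 0.19 CPM. The sums for Cnr1 went in different directions, for Nos1-expressing against Nos1-negative cells at 12.3 against 66.9 CPM in Mut female, 37.1 against 40.0 CPM in Mut male and 152 against 35.2 CPM in WT male. Fitted log2 fold changes were 0.72 ± 0.37 (SE) for Cck and -0.14 ± 1.35 (SE) for Cnr1 (unadjusted p = 0.0775 and 0.919, edgeR). Cck and Cnr1 were both highest in WT male cell 12, the member without Lhx6.

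Pnoc, the precursor of nociceptin, was at 10 CPM or more in 6 members and 22 Nos1-negative cells, Tac1 in 4 and 26, Penk in 1 and 7, Pdyn in 2 and 1, and Crh in 0 and 4. Pvalb, which starts later in development, reached it in 0 members and 1 Nos1-negative cell, and of its lineage companions Kcnc1 was at it in 5 and 21, Kcnc2 in 3 and 24 and Cplx1 in 9 and 44. Among receptors, Npy1r was at it in 2 members and 5 Nos1-negative cells, Npy2r in 0 and 1, Chrm1 in 3 and 14 and Oprm1 in 0 and 3.

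Gphn, the gephyrin gene that carries the mutation in Mut mice, was at 170, 1.88 and 212 CPM in Mut female cells 5, 13 and 21, and at 168 CPM in Mut male cell 4. In WT male cells 6, 9, 10, 11, 12 and 18 it was at 455, 411, 464, 0.30, 34.7 and 265 CPM. It was thus at 10 CPM or more in 8 of 10 Nos1-expressing cells (44.4 to 97.5%) and in 27 of 52 Nos1-negative cells (37.6 to 66.0%), with medians of 191 and 12.996 CPM. In the sums of Nos1-expressing against Nos1-negative cells Gphn was at 149 against 92.3 CPM in Mut female, 186 against 48.3 CPM in Mut male and 264 against 57.1 CPM in WT male. Its fitted log2 fold change was 1.62 ± 0.67 (SE; unadjusted p = 0.0330, adjusted p = 0.999724, edgeR).

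Lhfpl4, which brings GABA-A receptors together with neuroligin 2, was at 10 CPM or more in 9 of 10 Nos1-expressing cells (55.5 to 99.7%) and in 21 of 52 Nos1-negative cells (27.0 to 54.9%), with medians of 82.3 and 4.41 CPM. Mut male cell 4 was the member below, at 4.94 CPM, and the Mut male sums ran the other way, at 5.51 CPM against 51.5 CPM in the Nos1-negative sum. Its fitted log2 fold change was -0.08 ± 1.39 (SE; unadjusted p = 0.952, edgeR), and its sign turned under several alternatives. Nlgn2 was at this level in 6 members and 24 Nos1-negative cells and Iqsec3 in 5 and 19. Of the 10 genes of this list, 1 had an unadjusted p under 0.05 upward, against 0.595% of all genes. Of their log2 fold changes 5 were above 0, against 36.7% of all genes, with a median of 0.04 against -0.44.

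Of the 12 GABA-A receptor subunits, 0 had an unadjusted p under 0.05. Gabra2 was at 10 CPM or more in 7 members and 26 Nos1-negative cells, Gabra5, the subunit of extrasynaptic receptors in hippocampus, in 7 and 33, Gabrg3 in 7 and 26, and Gabrb1 in 1 and 21. Among genes that make and handle GABA, Gad2 was at it in 8 members and 40 Nos1-negative cells and Slc32a1, the vesicular transporter, in 4 and 19.

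Receptors for glutamate and ion channels gave 0 genes at an unadjusted p under 0.05 in 4 lists of 48 tested genes together. Grin2b was at 10 CPM or more in 10 members and 51 Nos1-negative cells, Grin1 in 9 and 34, Grin2a in 4 and 14, and Gria1, Gria2 and Gria4 in 9 members each and in 48, 45 and 37 Nos1-negative cells. Cacna1d, an L-type calcium channel, was at it in 8 members and 22 Nos1-negative cells, with medians of 72.0 and 1.57 CPM. Kcnd2, an A-type potassium channel, was at it in 6 members and 26 Nos1-negative cells. Of the sodium and calcium channel genes, 14 of 15 had a greater share among Nos1-expressing cells, where 56.6% of all genes tested did, but in the fit 6 of 14 log2 fold changes were above 0, with a median of -0.13.

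Genes of synaptic release, migration and recent activity likewise held 0 genes at an unadjusted p under 0.05 each. Snap25 was at 10 CPM or more in 10 members and 50 Nos1-negative cells and Dcx, of migrating neurons, in 10 and 49. Cxcr4, the chemokine receptor of tangentially migrating interneurons, reached it in 0 members and 7 Nos1-negative cells. Of 17 activity-regulated genes, 14 had a greater share among Nos1-expressing cells, against 56.6% of all genes tested, while 8 of 17 log2 fold changes were above 0, with a median of -0.03 against -0.44 over all genes. Junb was at it in 8 members and 24 Nos1-negative cells, Egr1 in 8 and 33, Fos in 7 and 36, Homer1 in 9 and 32, Ier2 in 6 and 19 and Dusp1 in 6 and 18.

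Markers of neighbouring cells were measured in the same libraries. Summed over 11 pyramidal neuron markers, Nos1-expressing cells ranged from 829 to 2449 CPM with a median of 1656 CPM, and Nos1-negative cells from 24.3 to 3335 CPM with a median of 973 CPM. The mean was higher in Nos1-expressing cells in 3 of 3 condition groups (exact sign-flip permutation p = 0.25, two-sided, the smallest the design allows). Mpped1 alone gave 784 of the 829 CPM in Mut female cell 21 and 1411 of the 1512 CPM in Mut female cell 13. In WT male cell 12 it gave 59.8 of 1886 CPM. Of the 11 markers, 5 had a log2 fold change above 0, with a median of -0.03, against 36.7% and -0.44 over all genes. By cells, 9 of the 11 had a greater share among Nos1-expressing cells, against 56.6% of all genes tested. Neurod6 or Slc17a7 was at 10 CPM or more in 8 of 10 Nos1-expressing and 31 of 52 Nos1-negative cells, and both were in 2 and 12. Nrgn, a calmodulin-binding protein of pyramidal dendrites, had medians of 223 CPM in Nos1-expressing and 86.5 CPM in Nos1-negative cells and a log2 fold change of 1.24 ± 0.52 (SE; unadjusted p = 0.0330, adjusted p = 0.999724, edgeR). The 2 members with neither Neurod6 nor Slc17a7 were Mut female cells 13 and 21, in which Cnr1 was at 0.19 and 29.8 CPM, Gphn at 1.88 and 212 CPM, and Cck at 212 and 60.5 CPM. The part of pyramidal RNA in the values of Cck, Cnr1, Gphn and Nrgn was not tested.

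The 7 oligodendrocyte lineage markers summed to 3.15 to 1916 CPM in Nos1-expressing cells (median 15.8 CPM, the highest in Mut female cell 21) and to 0.19 to 1033 CPM in Nos1-negative cells (median 4.22 CPM). The 11 microglia markers summed to 7.64 to 1660 CPM in Nos1-expressing cells (median 28.5 CPM, the highest in WT male cell 6) and 0.92 to 7815 CPM in Nos1-negative cells (median 16.8 CPM). The 8 astrocyte markers summed to 2.65 to 1288 CPM in Nos1-expressing cells (median 203 CPM) and 2.03 to 5690 CPM in Nos1-negative cells (median 48.0 CPM). Of the 8, 7 were at 10 CPM or more in a greater share of Nos1-expressing cells, against 56.6% of all genes tested. Slc1a3 reached 567, Aldoc 379 and Aldh1l1 78.6 CPM in Mut female cell 5, and Slc1a2 reached 337 and Sox9 288 CPM in WT male cell 12, while Aqp4 was at or below 0.57 CPM in every member. In the fit 0 of the 8 log2 fold changes were above 0, against 36.7% of all genes, and 2 had an unadjusted p under 0.05 downward, against 3.51%. Haemoglobin and other red blood cell genes had medians of 335 CPM in Nos1-expressing and 411 CPM in Nos1-negative cells. Of the Cajal-Retzius markers, Trp73, Lhx1, Lhx5 and Ebf3 reached 10 CPM in 0 cells of either class, and of the endothelial markers Cldn5, Flt1, Kdr and Tek in 0 members and Pecam1 in 8. Their part in the results was not tested.

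Depth had medians of 6489060 counts in Nos1-expressing and 6353180 in Nos1-negative cells, with 2946456 to 12070780 counts over all 62. Genes detected had medians of 12074 in Nos1-expressing and 11101.5 in Nos1-negative cells, and the mean of log2 values was higher in Nos1-expressing cells in 3 of 3 condition groups, by 0.12 on average (exact sign-flip permutation p = 0.25, two-sided, the smallest possible).

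**Figure D4:**
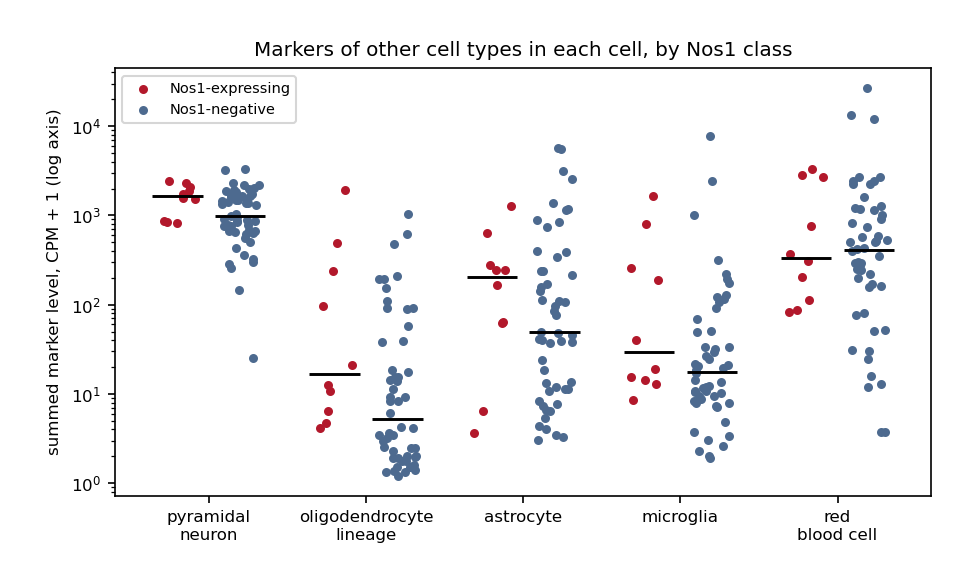
Summed level of markers of other cell types in each cell (CPM + 1, log axis), Nos1-expressing cells in red to the left of Nos1-negative cells in blue; black lines are medians. The summed pyramidal markers are at 829 CPM or more in every member, and are mostly Mpped1 in Mut female cells 13 and 21. The highest glial sums of the members are 1916 CPM (oligodendrocyte lineage) and 1660 CPM (microglia).

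With no gene past the adjusted threshold, the genes with the smallest unadjusted p whose sums differed the same way in all 3 condition groups, and which at least 50% of the cells of the higher class held at 10 CPM or more, are given as the head of the ranking and not as called genes. The 12 upward ones were Trim17, Calm2, Camsap2, Rprml, Impdh1, Dab1, Cacnb3, Arpc5, Necab2, Ssx2ip, Smu1 and Chpf, with log2 fold changes of 0.65 to 6.26 and unadjusted p of 0.000617 to 0.0189. Trim17, a ubiquitin ligase of the tripartite motif family, was at 233 CPM in Mut female cell 5, 140 CPM in Mut male cell 4, and 26.6, 204 and 1346 CPM in WT male cells 9, 11 and 12. It was at or below 0.42 CPM in the other 5 members, and 4 of 52 Nos1-negative cells reached 10 CPM, at most 59.7 CPM. Its log2 fold change was 6.26 ± 1.36 (SE; unadjusted p = 0.000617, adjusted p = 0.999724, edgeR), and WT male cell 12 gave 58.9% of the summed Trim17 of the members.

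Dab1, the adaptor that passes on the Reelin signal inside receiving cells, was at 10 CPM or more in 9 of 10 Nos1-expressing and 21 of 52 Nos1-negative cells, with medians of 169 and 4.15 CPM and a log2 fold change of 1.91 ± 0.63 (SE). Camsap2, which protects the minus ends of microtubules, was at it in 9 members and 27 Nos1-negative cells, with a log2 fold change of 2.20 ± 0.69 (SE). Cacnb3, an auxiliary subunit of voltage-gated calcium channels, was at it in 8 members and 31 Nos1-negative cells, with medians of 185 and 32.3 CPM. Necab2, a neuronal calcium-binding protein, was at 81.5 to 320 CPM in the 4 Mut members and at 212 CPM in WT male cell 6, and at or below 0.62 CPM in the other 5 WT male members. Arpc5, a subunit of the actin-branching Arp2/3 complex, was at 322 to 1424 CPM in the members, with medians of 696 CPM in Nos1-expressing and 401 CPM in Nos1-negative cells. Rprml, Impdh1, Ssx2ip, Smu1 and Chpf were at 10 CPM or more in 6 to 8 members and 20 to 23 Nos1-negative cells.

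The 12 downward ones were Faah, Ap1s2, Sf3b3, Limch1, Golm1, Tuba1b, Rora, Aplp1, Psmb10, Ube2g1, Armcx3 and Snhg11, with log2 fold changes of -5.07 to -0.77 and unadjusted p of 0.00380 to 0.0231. Faah, the enzyme that breaks down the endocannabinoid anandamide, was at 28.8 CPM in WT male cell 6 and at or below 3.47 CPM in the other 9 members. It was at 10 CPM or more in 26 of 52 Nos1-negative cells, with a median of 12.7 CPM, and its log2 fold change was -4.97 ± 1.39 (SE; unadjusted p = 0.00380, adjusted p = 0.999724, edgeR). Ap1s2, a subunit of the adaptor complex AP-1 of vesicle sorting, was at 317 CPM in Mut female cell 21 and at or below 2.74 CPM in the other 9 members, with 35 of 52 Nos1-negative cells at 10 CPM or more. Rora, a nuclear receptor that acts as a transcription factor, was at it in 3 members and 26 Nos1-negative cells, Golm1 in 2 and 27, Psmb10, an immunoproteasome subunit, in 2 and 31, Ube2g1 in 3 and 27 and Armcx3 in 2 and 29.

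Limch1 was at it in 6 members and 41 Nos1-negative cells and Sf3b3, a splicing factor subunit, in 8 and 42, with medians of 13.8 and 49.2 CPM. Tuba1b, Aplp1 and Snhg11 were at it in nearly every cell, and their log2 fold changes were -0.77, -0.85 and -1.08; Tuba1b is one of several near-identical alpha-tubulin genes, between which reads may be split. In some of the downward genes 1 condition group carried little of the difference. The Ube2g1 log2 ratio of sums was -5.40 in Mut female, -5.20 in Mut male and -0.22 in WT male, that of Golm1 was -0.10, -5.33 and -4.61, and that of Snhg11 was -0.86, -2.39 and -0.0085, in the same order.

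**Figure D5:**
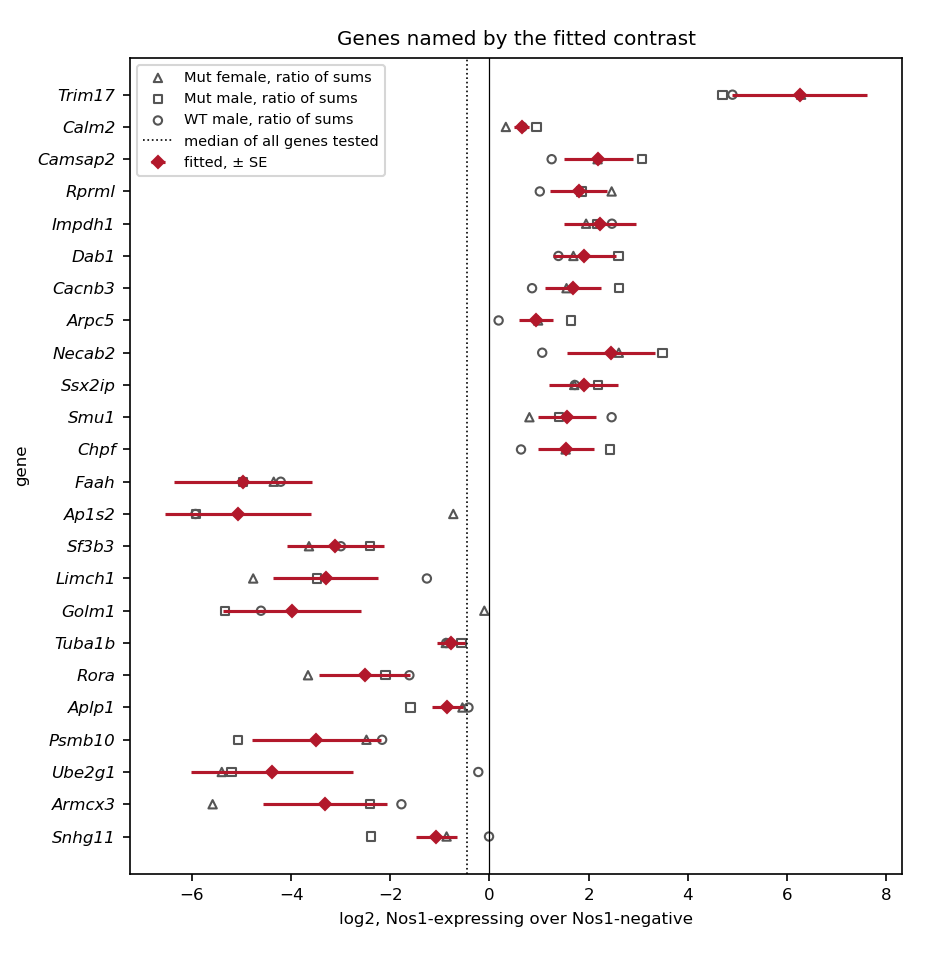
Log2 fold change, Nos1-expressing over Nos1-negative, of the 24 genes at the head of the ranking: the fitted value with its SE (red) and the log2 ratio of sums, after adding 1 CPM, in each of the 3 condition groups (open symbols). All open symbols of a gene lie on one side of 0 because the choice of genes required it; the dotted line at -0.44 is the median of all genes tested.

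Whether the Nos1 difference itself differed between the Mut groups and WT male was tested as an interaction, on 1 residual degree of freedom. The WT side is WT male alone, since WT female has no Nos1-expressing cell, and 1 of the 2 Mut pairs rests on a single Nos1-expressing cell, so genotype cannot be told apart from anything else particular to the 6 WT male cells, sex included. Of 14295 genes edgeR called 2 higher (0.014%) and 2 lower (0.014%) after adjustment, and 182 higher (1.27%) and 141 lower (0.986%) unadjusted. Maged2 was at 531 against 616 CPM in Mut female, 402 against 342 CPM in Mut male and 33.0 against 568 CPM in WT male, for Nos1-expressing against Nos1-negative sums (interaction 4.11 on the log2 scale, adjusted p = 0.0396, edgeR). Vac14 was at 366 against 81.0 CPM, 219 against 75.4 CPM and 0.85 against 92.7 CPM in the same order (8.62, adjusted p = 0.0396, edgeR). Ccl4, a chemokine made by activated microglia, was at 7.45 against 318 CPM, 17.9 against 115 CPM and 949 against 24.96 CPM (-9.30, adjusted p = 1.67e-05, edgeR); WT male cell 6, the member with the most microglia markers, gave 51.5% of its sum over the members. Gm19220, annotated as a processed pseudogene, took 0.387 to 11.6% of a member's counts. It was at 16329 against 25676 CPM, 13452 against 19873 CPM and 54238 against 28439 CPM (-1.54, edgeR). The calls depended on the tool and on single cells: DESeq2 called 646 genes, edgeR without a filter on low counts called 13, leaving out single cells gave 1 to 9, and a filter that kept genes at 10 CPM in at least 5 cells left 0 calls, as did a Nos1 limit of 5 CPM.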

How the data were processed

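Kallisto, with no version given, and GRCm38 are named in the submitters' processing notes. The authors deposited estimated counts per gene symbol, before and after a quality filter, and TPM. The criteria of the filter and of the contamination mark are not given in the sources used here. The deposited count tables also hold columns that match none of the labelled samples, 44 after and 52 before the filter, and 44 among the TPM; these were not used. Of 35825 gene symbols, 35338 matched GENCODE on GRCm38, from which loci were taken.

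CPM were computed from the deposited counts, and Nos1 was taken out before the fit. Counts were summed per condition group and Nos1 class, rounded, filtered with filterByExpr (minimum count 10), scaled by TMM and tested in edgeR 4.0.16 (glmQLFit, glmQLFTest) with the condition group as a block, adjusted by Benjamini-Hochberg over all 14295 genes; 6 sums left 2 residual degrees of freedom, and the biological coefficient of variation was 1.10. WT female has no Nos1-expressing cell, so its 9 cells entered only the per-cell values, and the single-value test, planned over 4 condition groups, ran over 3. DESeq2 1.42.0, limma 3.58.1 on means of log2(CPM+1), other scalings, filters and Nos1 limits were alternatives. The SE beside an edgeR log2 fold change was worked out from the test, as its absolute value over the square root of the F statistic. The code was tested on simulated counts. Binomial intervals are exact Clopper-Pearson at 95%, and the limit for a count of 0 is 3 counts of the total. The members and the 29 gene lists were chosen with earlier results of these data known. Genes named from the fit were up to 12 per direction by adjusted and then unadjusted p, with the same sign in each condition group and 10 CPM in 50% of the cells of the higher class, passing over predicted, mitochondrial and pseudogene names; from the lists, up to 8 members by cells at 10 CPM among Nos1-expressing cells were named, and of the ivy, long-range and nitric oxide lists all members, with a few others named after their values were seen. Some genes of the lists are not reported here.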

Additional observations from a re-analysis of the deposited data

Results flagged for a closer look

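Among the Nos1-expressing cells, 3 values stood farther from the other 9 than Dixon's 95% limit allows, on a log2 scale after adding 1. Dab1 was at 0.87 CPM in WT male cell 12 and at 58.7 to 490 CPM in the others. Faah was at 28.8 CPM in WT male cell 6 and at 0.56 to 3.47 CPM in the others. Ap1s2 was at 317 CPM in Mut female cell 21 and at 0.30 to 2.74 CPM in the others. Of 46 measures looked at this way 3 were flagged, and chance flags about 1 in 20. All 3 are genes at the head of the ranking, chosen by the values of these same members, so that rate need not hold for them.

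The Nos1 contrast differed between the Mut groups and WT male for 4 genes by the interaction test (edgeR, adjusted p under 0.05), with log2 differences of -1.54 for Gm19220, -9.30 for Ccl4, 4.11 for Maged2 and 8.62 for Vac14. The Mut male sum of Nos1-expressing cells is 1 cell, and WT male is the only WT pair, so genotype cannot be told apart from what is particular to WT male.

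Nos1 was also present in cells outside the comparison. Of the 5 cells with a contamination mark, 3 were above the 7.15 CPM that was the highest value of a Nos1-negative cell, with 38.6 CPM in WT male with contaminants 2, 14.8 CPM in WT female with contaminants 1 and 14.1 CPM in WT male with contaminants 3. Of the 9 cells left out by the quality filter, Mut male cell 15 had 13.5 CPM of Nos1.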

How the results depend on the processing

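Between the Nos1 classes, the 0 genes called higher and 0 lower became 152 and 1258 with DESeq2, 0 to 1 and 0 to 2 on leaving out each condition group or Nos1-expressing cell in turn, and 4 and 3 without WT male cells 6 to 12, an alternative added after seeing the data; with other scalings, filters and Nos1 limits, limma and no condition group term the counts stayed at 0. The calls without Mut female were Lars2 and Fabp7, those without WT male Gm19220 and Il1a, and those without WT male cells 6 to 12 Calm2 (log2 fold change 1.12), Gm19220, Lars2, Tmsb4x, Nrep, Fabp7 and Ppia. Of 810 alternative fold changes of the genes given with one, 788 kept direction and side of the threshold, 6 gained a call and 16 reversed. Most of these genes are the 24 at the head of the ranking, chosen for the same sign in all 3 condition groups. None was called in the main fit. Keeping direction and side was thus largely set by the choice of genes and is not a test of them. Npy was at 0.80 with limma and at 0.15 without Mut female (-0.65 to 0.15 on leaving out each condition group or cell). Lhfpl4, at -0.08, was at 0.064 with DESeq2 size factors, 0.062 with DESeq2, 1.23 with limma, 0.44 without the condition group term, 1.08 at a limit of 5 CPM, 0.95 at 20 CPM, 50 CPM or 10 TPM, 0.059 with a negative class under 1 CPM and -1.18 to 1.16 on leaving out each condition group or cell.

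The 2 genes higher in the interaction, whose WT side is WT male alone, became 0 with DESeq2 size factors, library totals, limma, the filter of 10 CPM in 5 cells, a limit of 5 CPM or a negative class under 1 CPM, 1 among Lhx6 cells, 4 without a filter, 225 with DESeq2, 9 without WT male cells 6 to 12 and 0 to 5 on leaving out single cells. Its 2 lower genes became 0 with the filter of 10 CPM in 5 cells or a limit of 5 CPM, 1 with limma, 9 without a filter, 421 with DESeq2, 5 without WT male cells 6 to 12 and 1 to 6 on leaving out single cells. The interaction could not be fitted without a condition group that holds both classes, or at limits of 20 CPM, 50 CPM or 10 TPM, and it was not run without the condition group term. The cause of these moves was not tested.

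The Mut male share of Nos1-expressing cells became 13.3% at a limit of 5 CPM and 0% at limits of 20 CPM, 50 CPM or 10 TPM, at which the Mut female share became 10.5%. The log2 difference in counts per cell, 0.11, became -0.016 at a limit of 5 CPM; genes detected and summed pyramidal markers stayed higher in Nos1-expressing cells throughout. Of 880 alternative shares of cells with a gene, 32 left the main interval. By share, Sst, Cck, Cnr1, Gphn, Lhfpl4, Nos1ap and Cacna2d1 stayed higher and Gucy1a1, Slc7a1 and Elfn1 lower in Nos1-expressing cells under all 22 alternative choices of cells. These choices share most of their cells, and limits of 20 CPM, 50 CPM and 10 TPM gave the same 8 members, so they are not independent checks. In the sums Sst ran the other way, and Cnr1, Lhfpl4, Nos1ap and Cacna2d1 went in different directions between condition groups. Cells with both Neurod6 and Slc17a7 under 10 CPM could not be fitted, since they held 2 Nos1-expressing cells in 1 condition group. Beyond pairing by condition group, no paired analysis was possible because the labels give the cells no replicate numbers that name an animal. The cell numbers used here only count the cells within a condition group.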
